A study of Mus musculus with 8 samples.

Results

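miR-126a is a mouse miRNA hairpin from which both strands, miR-126a-3p and miR-126a-5p, were read in brain small RNAs bound to Argonaute (Ago) proteins. Its members were all sequences that the deposited table named mmu-miR-126a-3p or mmu-miR-126a-5p (mmu for Mus musculus, left out below), and that naming rule used no measured value. They comprised 266 of 47204 sequences, 189 for the 3p arm and 77 for the 5p arm, and 2 of 895 miRNA names. The RNA came from the cortex and hippocampus of 8 mice, each giving 1 library. The 4 het mice were 5XFADtg/Rubicon het (Rubicon+/-) and the 4 ko mice were 5XFADtg/Rubicon KO (Rubicon-/-). All 8 carried the 5XFAD transgenes, which are driven by the neuronal Thy1 promoter and lead to amyloid deposition, so no mouse without amyloid pathology entered the comparison. The mice were age-matched females on a mixed C57BL/6J and SJL background, aged 6 months (the methods also name 8 months, and the labels give no age for a library). Rubicon restrains autophagy, and the comparison asked what its complete loss changed among RISC-bound small RNAs (R-sRNAs) when amyloid was present in both genotypes.

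A miRNA hairpin is cut by Drosha and Dicer into a short duplex, from which an Ago protein keeps a strand as its guide. The guide finds its targets mainly through its seed, the bases just after its 5′ end, so a start that moves by a single base gives the guide a different set of targets. miR-126 lies within Egfl7, a gene of endothelial cells, and is a widely used marker of endothelium, where the 3p strand acts on VEGF signalling through Spred1 and the 5p strand acts on Dlk1. Whole tissue was measured here and the cells of origin were not. A change in the number of endothelial cells, in miR-126a per cell or in its share of Ago-bound RNA could therefore not be told apart.

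In GRCm38.p6, the RefSeq hairpin Mir126a lies at chr2:26591357-26591429 on the plus strand. GENCODE M21 places it within Egfl7 (chr2:26580014-26593120, plus strand), in an intron of 8 Egfl7 transcripts and in exon 4 of the retained-intron transcript Egfl7-206. The intron follows exon 7 of 10 in Egfl7-201. The hairpin is shown 5′ to 3′ because every comparison of arms, starts and ends below refers to it. Capitals mark the most abundant read of the 5p arm (positions 9 to 29 of the hairpin) and the mature 3p arm (positions 46 to 67, chr2:26591402-26591423).
Mir126a hairpin: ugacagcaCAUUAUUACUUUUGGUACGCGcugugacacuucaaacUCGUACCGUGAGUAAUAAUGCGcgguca

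The reads that carried the main seeds are shown next, since the arms differed in how often their 5′ end moved. In each, capitals mark bases 2 to 8, and the 6mer seed named before the read is bases 2 to 7.
miR-126a-3p seed CGUACC: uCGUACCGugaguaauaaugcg
miR-126a-3p seed GUACCG: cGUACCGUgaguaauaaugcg
miR-126a-3p seed UCGUAC: cUCGUACCgugaguaauaaugcg
miR-126a-5p seed AUUAUU: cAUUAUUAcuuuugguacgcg
miR-126a-5p seed UUAUUA: aUUAUUACuuuugguacgcg
The first of these is identical to the RefSeq mature miR-126a-3p, and the second begins 1 nt further along the hairpin.

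The libraries held between 509839 reads (het 1) and 19878054 reads (ko 2), and the 2 libraries above 5000000 reads, ko 1 and ko 2, were both ko. Levels are in CPM, the reads of a sequence scaled to 1000000 reads of its library, so that each value is relative to the rest of its library. A floor of 3 reads corresponded to at most 5.79 CPM, far below the level of either arm. miR-126a-3p was read 3983 times in the shallowest library, and the 95% Wilson interval of the 3p share of both arms was at most 2.38 percentage points wide. The intervals cover counting error only.

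Both arms were well represented in RISC. miR-126a-3p was the 41st most abundant of 895 miRNA names by mean level and miR-126a-5p the 58th. Over the 8 libraries the 3p arm took positions 29 to 59 and the 5p arm positions 50 to 77.

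The 3p strand, mmu-miR-126a-3p, gave 7689, 8115, 2391 and 4171 CPM in het 1 to het 4. In ko 1 to ko 4 it gave 3433, 8499, 6043 and 4602 CPM. The lowest library, het 3, and the second highest, het 2, were both het, and the groups overlapped over most of their range. The genotype means were 5592 ± 2771 CPM (het) and 5644 ± 2182 CPM (ko; SD, n = 4 each). By limma on log2(CPM + 1), with adjustment over 463 miRNA names, ko differed from het by 0.10 (SE 0.40, 95% interval -0.76 to 0.95, adjusted p = 0.975). This value was -0.26 without het 3 and -0.13 without ko 2, so leaving out either library turned its sign.

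mmu-miR-126a-5p, the strand with an A/U-rich 5′ part, gave 3226, 2942, 3721 and 1867 CPM in het 1 to het 4. In ko 1 to ko 4 it gave 2680, 3431, 1799 and 1785 CPM. Het 3, in which the 3p arm was lowest, was the library with the most 5p. The genotype means were 2939 ± 784 CPM (het) and 2424 ± 791 CPM (ko; SD, n = 4 each). The limma difference was -0.29 (SE 0.30, 95% interval -0.95 to 0.37, adjusted p = 0.975), and it was -0.67 (adjusted p = 0.576) without the 2 deep ko libraries. Neither arm passed the test, against a background of 1.3% of the 463 names that did (7.34% at an unadjusted p under 0.05), and the intervals leave room for a change of up to about 0.95 on the log2 scale in either arm.

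**Figure D1:**
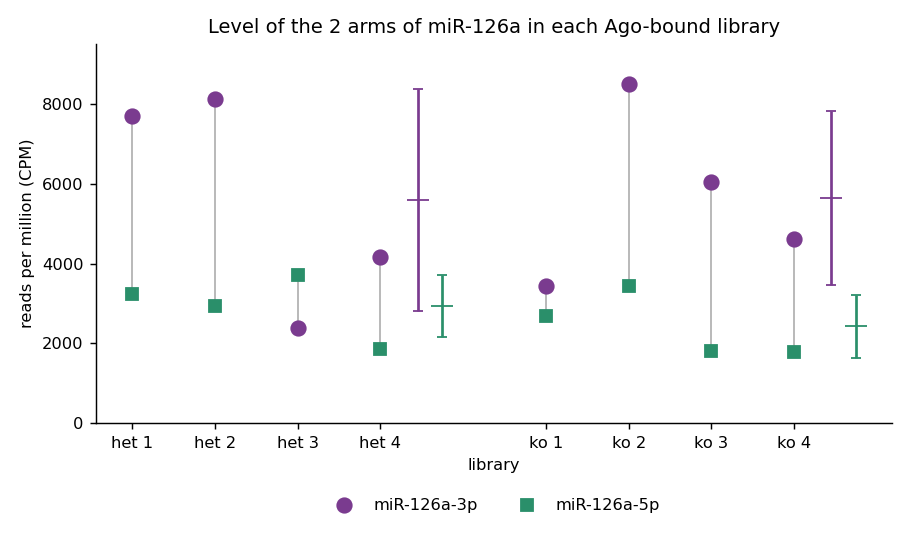
CPM (y axis) of miR-126a-3p (circles) and miR-126a-5p (squares) in each library, joined by a line, with the mean and SD of the 4 libraries of a genotype at the right of each group. The 3p arm was above the 5p arm in 7 libraries and below it in het 3.

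The 3p arm exceeded the 5p arm in 7 of 8 libraries. The ratio of 3p to 5p CPM was 2.38, 2.76, 0.643 and 2.23 in het 1 to het 4, and 1.28, 2.48, 3.36 and 2.58 in ko 1 to ko 4. Het 3 was thus the only library with more 5p than 3p, and ko 1, at 1.28, came next. The mean log2 ratio was 0.81 ± 0.97 in het and 1.19 ± 0.59 in ko (SD, n = 4 each). The difference of 0.39 lay within this spread (exact permutation test over 70 splits, two-sided p = 0.543, adjusted over 7 measures p = 0.76). Without het 3 it was -0.10. Within 1 fit over the ratios of 138 hairpin names with both arms, limma gave 0.38 (SE 0.53, 95% interval -0.75 to 1.52, adjusted p = 0.875). None of the 138 ratios passed (0% called), and 8 (5.8%), with miR-126a not among them, had an unadjusted p under 0.05.

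Since both arms were read in the same library, scaling cancels in their ratio. In het 3 the ratio lay 1.64 below the mean of miR-126a over all libraries on the log2 scale, and 0 of the 138 hairpins deviated further from their own mean in that library, whose median deviation was 0.02. The most abundant read of each arm took part in it. The leading 3p read was at 888 CPM in het 3 and at 1081 to 2760 CPM elsewhere. The leading 5p read was at 2310 CPM in het 3 and at 949 to 2102 CPM elsewhere. Among the 20 3p reads that averaged 10 CPM or more, 12 were lowest in het 3, and of the 8 such 5p reads, 5 were highest there. Reads of an arm share its precursor, so these counts are not independent of the level of the arm. Het 3 held 2554841 reads, its miRNA reads had a GC content of 44.6% (43.7% to 45.5% over all libraries), and 4.60% of them began with C, the lowest share of the 8 libraries (up to 5.69%). The part of these properties in the ratio was not tested.

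miR-126a stood among the hairpins with balanced arms. The size of its mean log2 ratio, 1.002, was the 26th smallest of 138, against a median of 2.93. The SD of its log2 ratio within a genotype was 0.81, against a median of 0.65 over the 138 hairpins, which made it the 38th most variable. Without het 3 its SD was 0.47, below the median of 0.63, and it was the 102nd. Among the other hairpins with at least 1000 CPM in each arm (let-7d, miR-132, miR-136, miR-30a and miR-9), the within-genotype SD over all libraries was 1.12 for miR-136, which is expressed from the imprinted Rtl1 antisense transcript, and 0.25 for miR-30a. These ranks are descriptions, since the hairpins share their libraries.

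**Figure D2:**
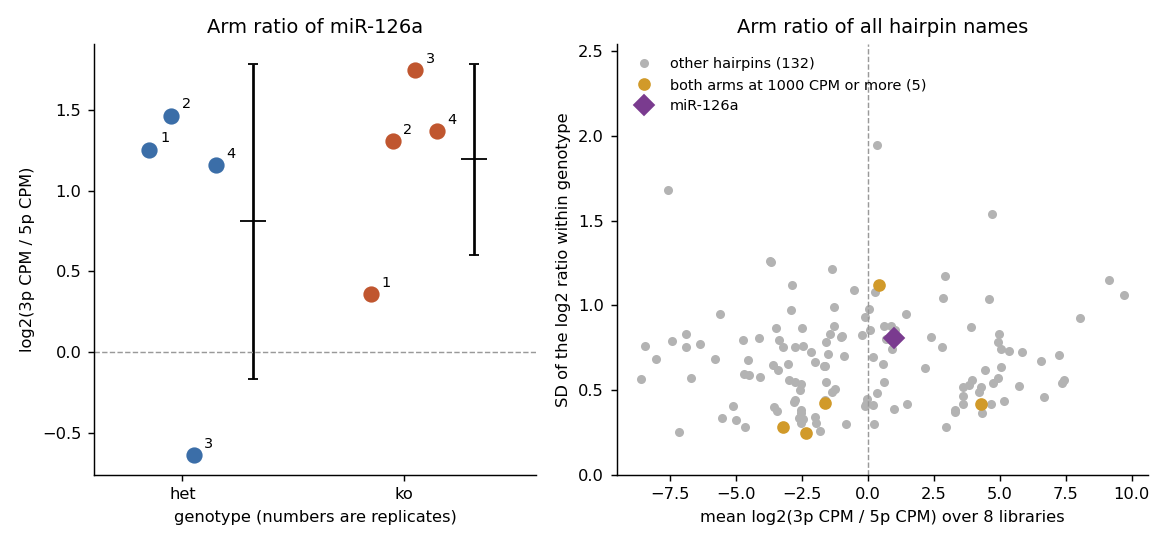
Left, log2 ratio of 3p to 5p CPM in each library (points, with the replicate number) with the mean and SD of 4 libraries per genotype. Right, mean log2 ratio (x axis) and within-genotype SD (y axis) of 138 hairpin names, where miR-126a (diamond) lies at 1.002 and 0.81 and the orange points are the other 5 hairpins with at least 1000 CPM in each arm.

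Over all 8 libraries, het 3 included, the levels of the arms bore little relation to each other. Pearson's r of their log2 CPM was 0.05 (permutation p = 0.905) and Spearman's rho was 0.10 (permutation p = 0.84), over 8 libraries. Without het 3 and ko 2, the libraries farthest from the median 3p level, r was 0.46. Het 3 had the least 3p and the most 5p, and r without het 3 alone was not computed. After removal of the genotype means, with het 3 again included, miR-126a-5p was 248th of 462 miRNAs in likeness to miR-126a-3p (r = 0.08). The names most like the 3p arm were miR-193a-3p (r = 0.91), miR-1251-5p (0.88), miR-376a-5p (0.88), miR-466c-5p (0.84) and miR-144-3p (0.84). Those most like the 5p arm were miR-411-5p (r = 0.94), miR-376b-3p (0.91), miR-146b-5p (0.91), miR-192-5p (0.90) and let-7f-5p (0.90). With 8 libraries and 462 names these values are descriptions only. The log10 of the read number and the log2 arm ratio had r = -0.19 (permutation p = 0.652) and rho = -0.38 (permutation p = 0.36), and r was -0.46 without het 1 and ko 2.

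The arms differed in the precision of their 5′ end. Of the miR-126a-3p CPM, 57.7% ± 2.8 (SD, n = 8) carried the 6mer seed CGUACC of a start at position 46, and 39.99% ± 3.4 carried GUACCG, the seed of a start 1 nt downstream. The seed UCGUAC, mostly from a start 1 nt upstream, made up 1.49% ± 0.66. For miR-126a-5p the seed AUUAUU made up 97.1% of the CPM and UUAUUA, from a start 1 nt downstream, made up 2.09%. There were 24 seeds among the 3p reads and 12 among the 5p reads, and all seeds below 1% of their arm summed to 0.866% and 0.796%. The 3p strand thus gave 2 sizeable guide populations and the 5p strand a single main one.

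**Figure D3:**
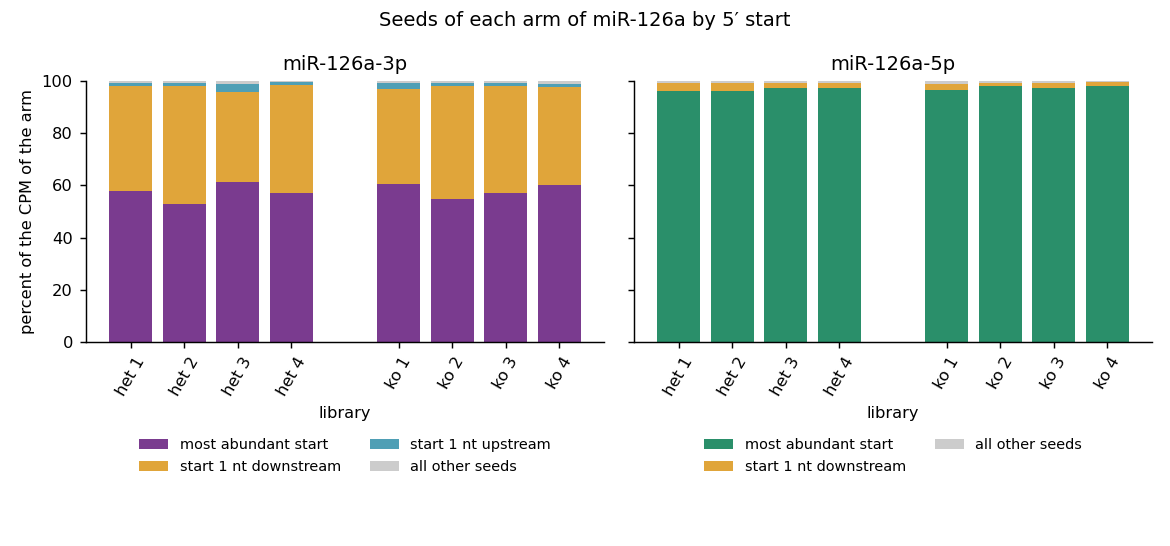
Share of the CPM of each arm (y axis, percent) by seed, labelled by the start that gives the seed, for each library (x axis). The start 1 nt downstream took 34.7% to 45.2% of miR-126a-3p in every library, and the most abundant start took almost all of miR-126a-5p.

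The shifted 3p population was present in every mouse. Seeds other than the main one ranged together from 38.8% (het 3) to 47.1% (het 2) of the arm. GUACCG took 40.4%, 45.2%, 34.7% and 41.4% of the arm in het 1 to het 4. In ko 1 to ko 4 it took 36.6%, 42.9%, 41.0% and 37.7%. Reads with any other seed than the main one, which include a few with a base change in the seed, together made up 42.8% ± 3.4 of the 3p arm in het and 41.9% ± 2.6 in ko (SD, n = 4 each; exact permutation test, two-sided p = 0.657). For the 5p arm this share, called shifted here, was 3.83%, 3.81%, 2.86% and 2.78% in het 1 to het 4. It was 3.34%, 1.93%, 2.65% and 1.87% in ko 1 to ko 4, so the groups overlapped with lower values in 3 ko libraries. The means were 3.32% ± 0.58 and 2.45% ± 0.69 (SD, n = 4 each; exact permutation test, two-sided p = 0.114, adjusted p = 0.4).

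Libraries with more miR-126a-3p also had more of it in shifted reads. Over 8 libraries Pearson's r between log2 CPM and the shifted share was 0.83 (permutation p = 0.0108, adjusted over 3 relations p = 0.032). Spearman's rho was 0.81 (permutation p = 0.022, adjusted p = 0.065), which missed the threshold after adjustment. Without het 3 and ko 2, r was 0.73. The share and the level were computed from the same reads.

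In level, CGUACC averaged 3142 ± 1461 CPM (het) and 3239 ± 1108 CPM (ko), while GUACCG averaged 2332 ± 1291 and 2280 ± 1043 CPM (SD, n = 4 each). Their limma differences were 0.12 (SE 0.37) and 0.07 (SE 0.44), and both changed sign when a single library was left out. AUUAUU differed by -0.28 (SE 0.30), and by -0.48 to -0.15 with 1 library left out. UUAUUA, at a mean of 57 CPM, differed by -0.83 (SE 0.40, 95% interval -1.68 to 0.02, adjusted p = 0.698 by limma), and by -1.14 to -0.62 with 1 library left out. 0 of the 6 miR-126a seeds tested passed, against a background of 0.781% of 896 pairs of name and seed, and none had an unadjusted p under 0.05, against 6.92%. The low UCGUAC population differed by 0.06 (SE 0.32), and UACCGU, mostly from a start 2 nt downstream, by 0.45 (SE 0.46).

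Seeds decide what a guide shares with other miRNAs. CGUACC came to 99.0% from miR-126a-3p among all reads of the table with that seed, and GUACCG to 99.3%. The remainder of each carried no miRNA name. UCGUAC behaved otherwise: 80.1% of its CPM came from miR-487b-3p, a miRNA of the imprinted Mirg cluster, and 19.7% from miR-126a-3p. UCGUAC is not the main seed of miR-487b-3p, which carried AUCGUA in 83.3% of its CPM and UCGUAC in 15.2%. The reads of miR-126a-3p with UCGUAC, at 74 CPM and mostly from a start 1 nt upstream, thus shared their seed with a minor form of miR-487b-3p.

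The arms lay far apart in 6mer seed viability. This score is the mean viability of 3 mouse cell lines after transfection with an siRNA of that seed, in percent of control. It comes from an earlier screen and was not measured in these mice. The main 3p seed CGUACC scored 38.4, the shifted GUACCG 60.9, UCGUAC 63.8, the 5p seed AUUAUU 87.0 and UUAUUA 80.6. Weighted by CPM, the 3p arm scored 47.3 to 49.0 and the 5p arm 86.6 to 86.9 over the 8 libraries, against 55.5 to 57.8 for whole libraries. The score of both arms together ranged from 57.0 (ko 3) to 71.3 (het 3) and depends on the arm ratio by construction, since the arms score so differently. CGUACC supplied between 1.18% (het 3) and 3.57% (het 1) of all reads with a seed viability under 40.

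The most abundant reads of miR-126a-3p were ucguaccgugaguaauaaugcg (1802 CPM), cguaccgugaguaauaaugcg (1172 CPM) and cguaccgugaguaauaaugcgU (557 CPM), where the capital is a base that the hairpin does not encode. They made up 62.8% of the arm. For miR-126a-5p they were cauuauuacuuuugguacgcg (1617 CPM), cauuauuacuuuugguacgcgU (310 CPM) and cauuauuacuuuugguacgc (287 CPM), or 82.5% of the arm. The leading 5p read alone made up 60.3% of its arm and the leading 3p read 32.1%.

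Of the 189 3p and 77 5p sequences, 114 and 53 could be placed on the hairpin with at most 3 untemplated bases at the 3′ end, and these held 99.2% and 99.6% of the CPM. By templated position, the main 3′ end held 80.04% of the placed 3p CPM and the main start 57.0%, whereas in the 5p arm the main 3′ end held 84.0% and the main start 97.3%. As RefSeq gave the mature sequence of the 3p arm only, full length in the 5p arm means the end of its most abundant read. Full-length reads made up 52.7% ± 7.0 of the 3p arm and 61.2% ± 4.6 of the 5p arm (SD, n = 8). Reads of full length or longer with an untemplated tail made up 26.0% and 21.9%, and trimmed reads without a tail 15.96% and 14.5%. Tails were almost all A or U, with 16.2% and 13.6% of the 3p CPM and 10.2% and 12.2% of the 5p CPM. The lengths peaked at 22 nt for the 3p arm (50.4% of its CPM) and at 21 nt for the 5p arm (60.7%).

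**Figure D4:**
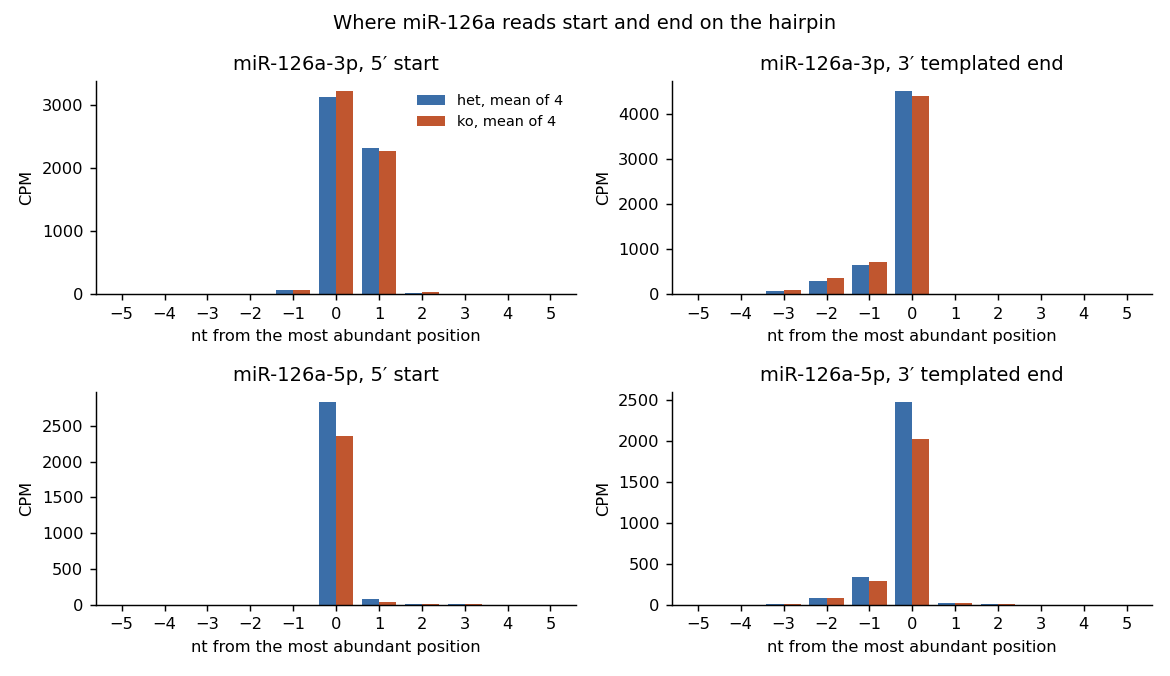
Mean CPM of 4 het and 4 ko libraries (y axis, each panel with its own scale) by the 5′ start and the templated 3′ end of the reads, in nt from the most abundant position of the arm. Only the 3p arm had a second high start, 1 nt downstream of the first.

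Mean read length did not separate the genotypes. For the 3p arm it averaged 21.63 ± 0.06 nt (het) and 21.62 ± 0.10 nt (ko; SD, n = 4 each; exact permutation test, two-sided p = 0.857). For the 5p arm the values were 21.01 ± 0.03 nt and 21.05 ± 0.06 nt (SD, n = 4 each; exact permutation test, two-sided p = 0.257).

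The share of reads with an untemplated 3′ end is a measure of tailing, the addition of bases by terminal nucleotidyl transferases. For miR-126a-5p it was 19.7%, 21.1%, 20.5% and 23.5% in het 1 to het 4. In ko 1 to ko 4 it was 27.5%, 24.1%, 23.4% and 24.8%. The groups met at a single pair, het 4 and ko 3. The means were 21.2% ± 1.6 and 24.9% ± 1.8 (SD, n = 4 each), a difference of 3.76 percentage points (exact permutation test, two-sided p = 0.0571, adjusted over 7 measures p = 0.4, smallest p the design allows 0.0286). Of the classes behind it, full-length or longer reads with a tail took 19.0% to 22.0% of the arm in het and 22.5% to 26.4% in ko. Those ranges did not overlap, which held for 1 of the 22 end and tail classes examined over both arms, and the class was singled out after its values were seen. Both A tails (9.29% ± 1.07 in het and 11.2% ± 1.4 in ko) and U tails (11.4% ± 1.5 and 13.02% ± 1.6) had overlapping ranges (SD, n = 4 each).

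For miR-126a-3p the untemplated share was 31.2%, 22.7%, 24.8% and 33.7% in het 1 to het 4 and 27.2%, 29.3%, 30.6% and 44.1% in ko 1 to ko 4. The means were 28.1% ± 5.2 and 32.8% ± 7.6 (SD, n = 4 each; exact permutation test, two-sided p = 0.4). Library ko 4 was well above the other 7, and without it the difference was 0.96 percentage points. A smaller class, trimmed and then tailed, made up 3.62% ± 0.49 in het and 5.32% ± 1.43 in ko (SD, n = 4 each). Its ranges overlapped (3.05% to 4.22% and 3.85% to 7.005%), and it was chosen after its values were seen and not tested.

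**Figure D5:**
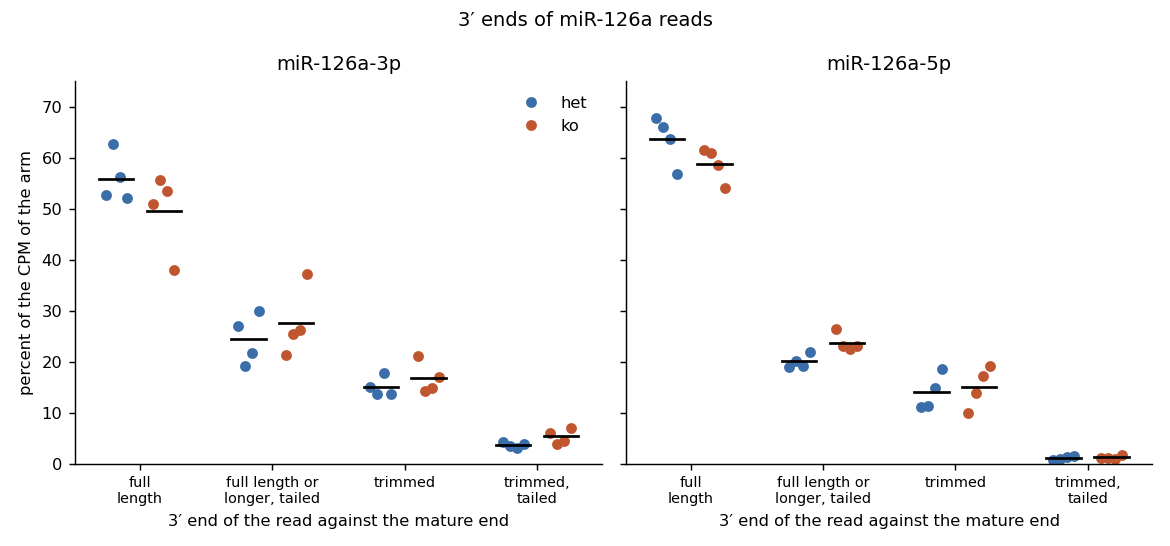
Share of the CPM of each arm (y axis, percent) in 4 classes of 3′ end, with a point for each library and a bar at the mean of 4 het or 4 ko libraries. In miR-126a-5p the full-length or longer tailed reads, a class singled out after its values were seen and 1 of 22 examined, lie between 22.5% and 26.4% in ko and between 19.0% and 22.0% in het.

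Single reads were tested last. Of the 28 miR-126a reads that averaged 10 CPM or more, 20 of the 3p arm and 8 of the 5p arm, 0 passed, against a background of 0.485% of 3299 reads, and 2 had an unadjusted p under 0.05, against 5.3% (1.12% when only higher values in ko are counted, the direction of both). The median log2 difference was 0.18 over the 3p reads and -0.20 over the 5p reads, against -0.02 over all reads. In 0 of these 28 reads did the genotypes fail to overlap, against a background of 3% of the 3299 reads tested. For the 3p arm 13 of 20 differences were positive, and for the 5p arm 1 of 8, against 48.4% of all reads tested. Reads of an arm share their libraries and their precursor, so these counts are not independent of the difference of the arm itself.

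The 2 reads with the smallest p were both 3p reads that had lost the final 2 templated bases and gained a base, shown here with the added base in capitals. Their het means, 6.40 and 6.86 CPM, were below the minimum of 10 CPM set on the mean of all libraries and their ko means, 20.7 and 21.9 CPM, above it, so they were tested only through ko and a higher value there was favoured by the filter.
miR-126a-3p read, shifted start: cguaccgugaguaauaaugA
miR-126a-3p read, main start: ucguaccgugaguaauaaugU
The first gave 1.93, 13.1, 3.11 and 7.51 CPM in het 1 to het 4, and 22.3, 26.0, 12.9 and 21.6 CPM in ko 1 to ko 4. Its log2 difference was 1.77 (SE 0.58, adjusted p = 0.629 by limma). The second gave 1.93, 5.50, 3.11 and 16.9 CPM in het, and 21.1, 19.1, 12.9 and 34.3 CPM in ko, with a difference of 1.82 (SE 0.61, adjusted p = 0.629 by limma). In both, ko 3 overlapped with the highest het library, and the value in het 1 stood for a single read. Together with their counterparts at the other start, reads 2 nt short with an added A summed to 51.9 ± 30.2 CPM (het) and 93.9 ± 19.8 CPM (ko), and those with an added U to 10.3 ± 8.8 and 24.5 ± 8.2 CPM. The same reads without a tail summed to 192 ± 107 and 195 ± 42 CPM (SD, n = 4 each). These sums were chosen after the values of the single reads were seen and were not tested.

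The 3p reads with a negative log2 difference and the smallest p were cUCGUACCgugaguaauaaugcg at -0.24 (SE 0.42) and a read that began 2 nt downstream at -0.44 (SE 0.97). The latter had no read in ko 4, and its mean CPM was higher in ko (10.7) than in het (10.1). For the 5p arm they were aUUAUUACuuuugguacgcg at -0.79 (SE 0.45) and the leading read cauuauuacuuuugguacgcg at -0.39 (SE 0.34). With 1 library left out these ranged from -1.14 to -0.52 and from -0.64 to -0.23, and without the deep libraries they were -1.21 and -0.83. The shifted 5p read gave 81.1, 53.6, 45.0 and 21.4 CPM in het 1 to het 4 and 42.5, 28.4, 21.9 and 16.7 CPM in ko 1 to ko 4. The only 5p read with a positive log2 difference, 1 nt short with an added A, was at 0.07 (SE 0.53). Its mean CPM was lower in ko (12.6) than in het (14.2), and it was negative by edgeR (-0.21) and DESeq2 (-0.20). All 5 had an adjusted p of 0.973 or above by limma.

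Nothing else from the locus was read at a comparable level. Mir126b is annotated on the opposite strand of the same locus (chr2:26591363-26591420, minus strand), and 0 sequences carried its name or matched that strand exactly. No sequence fell within the terminal loop, and none matched the exons of Egfl7 outside the hairpin. A further 181 sequences annotated to the hairpin without a mature name gave 113 CPM on average, 1.36% of the level of the named reads.

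Other miRNAs linked to vessels, blood and brain cells give the context of the miR-126a values. The list studied in endothelium holds 19 miRNAs, such as members of the miR-17-92 and miR-23-27-24 clusters. All 19 were tested and none passed, against 1.3% of all 463 names, a share at which lists this short would hold few or no calls. Of these, 6 had a positive difference, against 40.6% of all 463 names, the median was -0.22, against -0.09 over all names, and their sum ranged from 58562 to 70813 CPM (het) and from 55046 to 80491 CPM (ko). Of 4 smooth muscle and pericyte miRNAs (miR-143 and miR-145a arms) none passed, with a median of -0.23 and sums of 4731 to 6079 CPM (het) and 3404 to 5834 CPM (ko).

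The red cell list had 4 of 6 members in the table, 3 were tested, and none passed, against 1.3% of all 463 names. Their median was -0.86, against -0.09 over all names, and the list summed to 1745 to 3142 CPM (het) and 729 to 2251 CPM (ko). miR-451a, the main red cell miRNA, averaged 1629 ± 295 CPM (het) and 988 ± 520 CPM (ko; SD, n = 4 each), a difference of -0.86 (SE 0.36, adjusted p = 0.593 by limma). None of the 4 leukocyte and platelet miRNAs passed (median -0.15, sums of 2558 to 3991 and 2430 to 4528 CPM). None of 4 neuronal miRNAs passed (median 0.10, sums of 153778 to 196821 and 150911 to 252535 CPM), nor did any of 3 oligodendrocyte miRNAs (median -0.51, sums of 9473 to 15455 and 6148 to 9935 CPM). The neuronal members differed in direction, from -0.61 (miR-138-5p) to 0.41 (miR-9-5p). So did the oligodendrocyte members, from -1.08 (miR-219a-5p) to 0.13 (miR-219a-2-3p). The part of these cell types in the miR-126a values was not tested.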

How the data were processed

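Ago-bound small RNAs of 8 mice were analysed, with groups and replicate numbers from the sample titles. The replicates are different mice. The methods of the study and the labels give 4 mice per genotype, all analysed here, whereas another passage of the study speaks of fewer replicates. The deposited CPM values were made by the authors with the SPOROS pipeline, per the study's methods: reads were trimmed (Trim Galore, per the submitters' processing notes), compiled to 1 line per sequence, stripped of rare and artificial sequences, matched to small RNA lists and scaled to 1000000 reads per library. Each 6mer seed also carries a score that the authors added, the mean viability in 3 mouse cell lines in an earlier screen. The genome build and aligner settings of the match are not given in the sources used here. Removal of rare sequences favours variants seen in deep libraries. Column sums were 98.4% to 99.8% of 1000000.

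Within 2% of 1 read and the rounding of the deposited values to 3 decimals, 100% of values were whole multiples of 1 read, and the recovered reads gave the depth (509839 to 19878054). CPM was summed per name, per name and seed, and per read. Features with a mean of 10 CPM or more were transformed to log2(CPM + 1) and tested with limma 3.58.1 under R 4.3.3 (moderated with a robust intensity trend), ko against het with no covariate, Benjamini-Hochberg adjusted over the whole table at 0.05. edgeR 4.0.16 (quasi-likelihood) and DESeq2 1.42.0 on recovered reads were alternatives. Fold differences on this scale understate changes of low reads. Measures per library (7), read as single values (log2 arm ratio, and per arm the shifted share, mean length and untemplated share), were compared by two-sided exact permutation over 70 splits and adjusted over the 7. Reads were placed on the RefSeq GRCm38.p6 hairpin (15 or more templated bases, at most 3 added). Of the members, miR-126a-3p matched a RefSeq mature sequence. The scripts were tested on simulated data. Python 3.11.15, numpy 2.4.6, scipy 1.17.1, pandas 2.3.3 and matplotlib 3.10.9 served for the rest.

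miR-126a, the lists and the tests were chosen with earlier results of these data known, although the rule that assigned sequences to it used only their names. The reads named were the 3 most abundant of each arm and, as none passed, the 2 with the smallest p in each direction. Seeds named held at least 1% of their arm, and UACCGU was added after its value was seen. The miRNAs named for likeness were the 5 with the highest r per arm. The labels give no pairing of the mice, and replicate numbers were not used as pairs. Same-numbered libraries correlated at 0.04, 0.29, -0.18 and 0.25 after removal of the genotype means, which cannot show whether mice were paired. Alternatives were other pseudocounts, filters and scalings, each library left out, the deep libraries left out, thinning to equal depth and a replicate block.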

Additional observations from a re-analysis of the deposited data

Results flagged for a closer look

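The arm ratio of het 3 stood apart from those of the other het libraries. Its log2 ratio of 3p to 5p CPM was -0.64, while the next lowest het library was at 1.16, a gap of 0.855 of the range of the group, above Dixon's 95% critical value for 4 samples. Among 28 groups examined this way, chance alone would give about 1.4 such values, and 1 was found. The cause was not tested.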

How the results depend on the processing

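Of 388 alternatives, 356 kept the direction and the side of the threshold (for counts, a value within 1.5 times), 30 reversed a direction, 2 moved a value without a direction (the count of miRNAs called and the within-genotype SD of the arm ratio, 0.81 against 0.47 without het 3, added after seeing the data) and 0 brought a result past the threshold. The exact permutation measures could not pass alone, since a p of 0.0286, the smallest with 4 libraries in 1 group and 3 or 4 in the other, gives an adjusted p of 0.2 over 7 measures, and the smallest p without the deep libraries was 0.0667, so their side of the threshold says nothing about stability. The miR-126a-3p level lay between -0.26 (without het 3) and 0.33 when 1 library was left out, and was -0.13 without ko 2. The arm ratio lay between -0.10 (without het 3) and 0.66, by either test, and was 0.75 without the libraries above 5000000 reads. The 3p shifted share differed by -2.27 to 0.51 percentage points and the 3p read length by -0.045 to 0.034 nt when 1 library was left out. The 3p read length differed by 0.056 nt without the deep libraries, by 0.0088 nt over reads of 20 to 24 nt and by 0.0023 nt after thinning, and the 5p read length by -0.0013 nt without the deep libraries. With 1 library left out, the seed CGUACC ranged from -0.20 to 0.33, GUACCG from -0.36 to 0.36 and UCGUAC from -0.11 to 0.19 (-0.17 without the deep libraries). The 3p read that began 1 nt upstream ranged from -0.44 to 0.071. The 3p read that began 2 nt downstream ranged from -0.77 to 0.50 in the 6 of 8 omissions that kept it above the filter, with 0.29 by edgeR, 0.24 by DESeq2, -1.19 at a pseudocount of 0.1 and -0.035 at a pseudocount of 10. The 5p read 1 nt short with an added A ranged from -0.40 to 0.42, with -0.21 by edgeR, -0.20 by DESeq2, -0.025 at a pseudocount of 10 and -0.10 without the deep libraries. Apart from the left-out libraries themselves, the cause of these changes was not tested.

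The 5p level stayed negative throughout, from -0.67 without the deep libraries to -0.07 with each library centred on its median. That centring put the 3p level at 0.32, so the size of both differences depends on the scaling. 0 reads and 0 seeds of miR-126a passed in any alternative, edgeR and DESeq2 included. The 5p untemplated share stayed higher in ko, by 2.90 to 5.18 percentage points, with adjusted exact permutation p from 0.2, the lowest that it could reach alone, to 0.622. Adding hairpin reads without a mature name, chosen after seeing the data, gave an arm ratio difference of 0.39. The replicate numbers were treated only as labels. With a replicate block limma called 10 miRNAs in place of 6, the miR-126a-3p and miR-126a-5p differences stayed at 0.10 and -0.29 (adjusted p = 0.981 and 0.938), and 1 of 4 het libraries correlated best with the ko library of its number. The paired exact permutation test cannot go below p = 0.125.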
